A study of Mus musculus with 2 samples.

Results

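The transcripts described here encode PPAR gamma, RXR alpha and the coregulators that dock on this receptor pair, in the mouse preadipocyte line 3T3-L1. The 9 genes are Pparg, Rxra, Ppargc1a, Ppargc1b, Ncor1, Nrip1, Ncoa1, Ncoa2 and Med1. They were taken by name from the deposited comparison table, under the current symbol or an older synonym, and have 27 of its 45101 probe sets. Of these, 18 were filed under the current symbol, 6 of Med1 under Pparbp, and 3 under names of cDNA clones that RefSeq assigns to Ppargc1a, Rxra and Ncor1. The whole table has a probe set for 19086 genes, of which 11326 were detected, all 9 members among them. Detected here means a signal on either array of at least 19.4, the median of all signals on both arrays and not a test against background.

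Each group was 1 sample on 1 Affymetrix array. The library labelled Fbxl10 overexpression, below the Fbxl10-labelled library, came from cells given a retroviral vector with Fbxl10, the older name of the histone demethylase gene Kdm2b, under a viral LTR promoter described as weak. The empty vector library came from cells given an empty vector. Both were cells of the same line kept in 10% fetal bovine serum, then exposed, 2 days after confluence, to insulin (1 µg/ml), dexamethasone (0.25 µM) and isobutylmethylxanthine (0.5 mM), and both were harvested on day 2. With 1 array in each group there is no test, standard error or replicate check for any value below.

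PPAR gamma is a ligand-activated nuclear receptor that fat cell differentiation requires. It binds DNA as a heterodimer with RXR alpha, and ligand replaces corepressor complexes built on NCoR with coactivators. The p160 proteins encoded by Ncoa1 and Ncoa2 bring histone acetyltransferases, Med1 is the Mediator subunit that binds nuclear receptors, the PGC-1 proteins encoded by Ppargc1a and Ppargc1b drive oxidative and mitochondrial genes, and Nrip1 encodes RIP140, which opposes PGC-1 at many of those genes.

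Before any member is considered, the targeted gene did not follow its label. Kdm2b read 350.9 in the Fbxl10-labelled library and 431.6 in the empty vector library at probe set 1452198_at, and 419.6 in the Fbxl10-labelled library against 558.5 in the empty vector library at 1459861_s_at, so it was lower by both. Where they lie relative to the cloned Fbxl10 insert is not given in the sources used here. Directions below are therefore between libraries as labelled. Of 9 preadipocyte and fibroblast markers 8 were detected on both arrays, with a summed signal of 30757 in the Fbxl10-labelled library and 22514 in the empty vector library, and Cd34 was undetected. None of 4 endothelial or 4 epithelial markers reached the detection threshold. Of 5 macrophage markers 3 did in the Fbxl10-labelled library and 1 in the empty vector library, with sums of 144.4 in the Fbxl10-labelled library and 64.6 in the empty vector library, Ptprc and Adgre1 undetected and none at 0. Of 4 muscle markers, Des alone was detected, at 26.8 in the empty vector library. The part of these shifts in the results was not tested.

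RefSeq holds windows around the transcription starts (250 bases before, 50 after, build GRCm38.p6) for 7 of the 9 genes. There is none for Ppargc1b or Ncoa2, and the members have 12 windows in all. KDM2B carries a zinc finger that binds CpG dinucleotides free of methylation, so the letters CG were counted in each. Windows of the upstream Pparg start, of its downstream start, of Ppargc1a and of Med1 are shown because Pparg and Ppargc1a were among the lowest of the set while Med1 stood near 0. CG is in capitals, the rest in lower case, each read 5′ to 3′ on the gene's strand.
Pparg upstream start, chr6:115360894-115361193, plus strand: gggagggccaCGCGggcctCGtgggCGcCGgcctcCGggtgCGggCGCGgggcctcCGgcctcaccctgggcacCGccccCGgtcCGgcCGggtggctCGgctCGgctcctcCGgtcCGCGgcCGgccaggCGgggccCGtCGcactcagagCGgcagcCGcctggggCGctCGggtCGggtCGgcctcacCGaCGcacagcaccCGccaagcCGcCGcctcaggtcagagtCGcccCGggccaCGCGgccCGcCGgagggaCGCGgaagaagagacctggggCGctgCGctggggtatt
Pparg downstream start, chr6:115421816-115422115, plus strand: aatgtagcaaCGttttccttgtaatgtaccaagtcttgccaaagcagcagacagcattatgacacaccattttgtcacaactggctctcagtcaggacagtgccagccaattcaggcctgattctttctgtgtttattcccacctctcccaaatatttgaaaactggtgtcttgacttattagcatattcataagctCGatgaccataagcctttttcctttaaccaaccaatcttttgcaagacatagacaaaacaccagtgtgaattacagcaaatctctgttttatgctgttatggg
Ppargc1a, chr5:51567676-51567975, minus strand: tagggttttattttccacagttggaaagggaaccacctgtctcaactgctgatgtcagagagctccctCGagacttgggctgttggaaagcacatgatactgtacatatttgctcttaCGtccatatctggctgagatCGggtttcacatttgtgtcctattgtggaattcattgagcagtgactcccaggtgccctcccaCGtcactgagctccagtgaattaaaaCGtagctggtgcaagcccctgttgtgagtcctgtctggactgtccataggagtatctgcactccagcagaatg
Med1, chr11:98192857-98193156, minus strand: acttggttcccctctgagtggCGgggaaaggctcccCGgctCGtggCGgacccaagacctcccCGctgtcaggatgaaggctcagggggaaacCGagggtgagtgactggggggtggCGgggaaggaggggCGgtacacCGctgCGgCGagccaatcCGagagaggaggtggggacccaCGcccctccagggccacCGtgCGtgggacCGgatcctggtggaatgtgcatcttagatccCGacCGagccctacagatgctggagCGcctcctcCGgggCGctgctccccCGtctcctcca

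The upstream Pparg window held 44 CG, against a median of 7 over the 32851 windows of the table, and the downstream window held 2. A middle Pparg window (chr6:115362099-115362398) held 13. The Ppargc1a window held 5 and the Med1 window 22. The highest count among the members was 55, in 1 of the 2 windows of Rxra (chr2:27676951-27677250), a count that 99.8% of all windows did not exceed. Ncoa1 had 49 CG in its window, Nrip1 had 40 and 6 in its 2 windows, and Ncor1 had 36 and 2. Among the 7 genes with a window, those that were lower and those near 0 thus both include CG-rich and CG-poor starts. Ppargc1b, the lowest member, is not covered, and a relation of CG to the differences was not tested.

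Other motifs were searched on both strands. The C/EBP-type motif TTGCNNAA is present in 10.8% of all windows. Among the members it was found in the downstream Pparg window and in the CG-poor Ncor1 window. In the Pparg window a match begins 215 bases before the start (TTGCCAAA). Another lies on the opposite strand, and its letters on the gene's strand are TTTTGCAA, beginning 16 bases before the start. The SP1-type motif GGGCGG, present in 35.7% of all windows and overlapping CG by its letters, was found in 7 of the 12 member windows. The E-box CACGTG, in 7.15% of all windows, was in 0 of the 12. The arrays give 1 signal for Pparg and cannot assign it to a start.

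Of the receptor pair, Pparg was lower in the Fbxl10-labelled library by more than 2-fold and Rxra by 1.96-fold, short of the 2-fold mark used here. Pparg read 150.8 there and 912.2 in the empty vector library at its 1 probe set (1420715_a_at), a log2 difference of -2.60 or 6.05-fold. Log2 differences are throughout those of the Fbxl10-labelled library over the empty vector library, on the signals as the authors scaled them. Since RNA of whole cultures was measured, fewer cells making a transcript and less of it in each cell cannot be told apart.

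By log2 difference Pparg was the 69th lowest of the 11326 detected genes. As a yardstick, probe sets of 1 gene differed between each other by an SD of 0.281 on the log2 scale at signals of 100 to 500, which covers probe sets on this pair of arrays and not cultures. The Pparg difference is 9.24 of those SDs.

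Rxra read 154.9 in the Fbxl10-labelled library and 303.5 in the empty vector library at probe set 1425762_a_at, 1.96-fold lower (log2 difference -0.97). This lies just inside the 2-fold mark used here to call a gene different, and 5.70% of detected genes were as low or lower. A second Rxra probe set (1430497_at) read 1.9 in the Fbxl10-labelled library and 2.5 in the empty vector library, both below the detection threshold.

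Their paralogs lay on both sides of 0. Ppard, the broadly expressed PPAR delta, read 127.9 in the Fbxl10-labelled library and 178.8 in the empty vector library (log2 difference -0.48), and Rxrb, which encodes RXR beta, read 284.7 in the Fbxl10-labelled library and 234.5 in the empty vector library (0.28). The 2 probe sets of Ppara, the PPAR of liver and oxidative tissue, stood at 7.7 or less on both arrays, and Rxrg at 4.5 in the Fbxl10-labelled library and 3.1 in the empty vector library. Pparg and Rxra were thus the PPAR and RXR genes with the lowest differences of those detected.

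**Figure D1:**
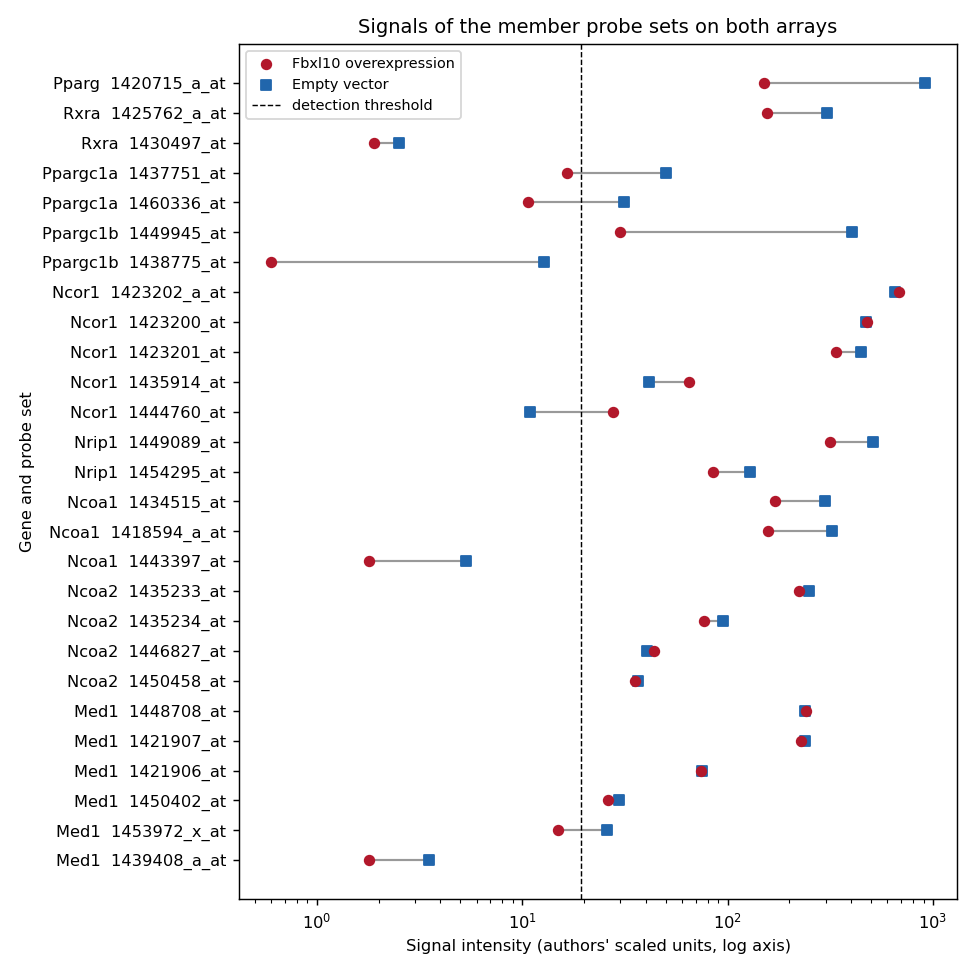
Signal intensity (authors' scaled units, log axis) of the 27 probe sets of the 9 genes. Circles are the Fbxl10-labelled library, squares the empty vector library, 1 array each, and the dashed line is the detection threshold of 19.4. Of the brightest probe sets of each gene, those of Pparg, Ppargc1a and Ppargc1b are more than 2-fold apart. Also more than 2-fold apart are a bright probe set of Ncoa1 (1418594_a_at) and dim ones of Ncoa1, Ncor1, Ppargc1a and Ppargc1b. The brightest probe sets of Ncor1 and Med1 overlap.

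The PGC-1 coactivator genes were low in the Fbxl10-labelled library, Ppargc1b most of all. Ppargc1b read 29.9 there and 402.6 in the empty vector library at probe set 1449945_at, 13.5-fold lower, with a log2 difference of -3.75. It was the 22nd lowest of all detected genes. Its signal of 29.9 in the Fbxl10-labelled library is near the threshold of 19.4, so the size of its fold and its rank depend on a dim reading. Its other probe set, 1438775_at, read 0.6 in the Fbxl10-labelled library and 12.8 in the empty vector library, below the threshold on both arrays, and so gives no fold.

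Ppargc1a was detected in the empty vector library alone. Probe set 1437751_at read 16.5 in the Fbxl10-labelled library and 49.9 in the empty vector library, which is at least 2.57-fold lower when the dim signal is put at the threshold. Probe set 1460336_at read 10.7 in the Fbxl10-labelled library and 31.3 in the empty vector library, at least 1.61-fold lower. Both lie in the same direction. The gene passed the detection rule only through the empty vector library, where both probe sets are near the threshold. The related coactivator gene Pprc1 was within 2-fold, at 230.2 in the Fbxl10-labelled library and 275.0 in the empty vector library (log2 difference -0.26).

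The p160 coactivators did not go together. Ncoa1, encoding SRC-1, read 170.9 in the Fbxl10-labelled library and 298.0 in the empty vector library at its brightest probe set 1434515_at, a log2 difference of -0.80. At the almost equally bright 1418594_a_at it read 157.0 in the Fbxl10-labelled library and 322.0 in the empty vector library, with -1.04. The gene therefore straddles the 2-fold mark, on one side or the other by choice of probe set. Probe set 1443397_at was undetected at 1.8 in the Fbxl10-labelled library and 5.3 in the empty vector library.

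Ncoa2, encoding TIF2, read 222.9 in the Fbxl10-labelled library and 249.8 in the empty vector library at 1435233_at, a log2 difference of -0.16. At 1435234_at it read 76.8 in the Fbxl10-labelled library and 95.5 in the empty vector library. The dimmer 1446827_at and 1450458_at read 43.7 and 35.3 in the Fbxl10-labelled library, against 40.4 and 36.8 in the empty vector library in the same order. All 4 log2 differences were between -0.31 and 0.11. Ncoa3, the remaining p160 gene, was nearly the same on both arrays, at 62.6 in the Fbxl10-labelled library and 62.3 in the empty vector library.

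Med1 was close to equal in the libraries. It read 240.7 in the Fbxl10-labelled library and 236.9 in the empty vector library at 1448708_at (log2 difference 0.02), and 228.8 in the Fbxl10-labelled library and 237.0 in the empty vector library at 1421907_at. The dimmer 1421906_at and 1450402_at read 73.9 and 26.1 in the Fbxl10-labelled library, against 75.3 and 29.5 in the empty vector library in the same order. The log2 differences of these 4 probe sets, the ones above the threshold on both arrays, lay between -0.18 and 0.02. The dim 1453972_x_at read 14.9 in the Fbxl10-labelled library and 25.9 in the empty vector library, and 1439408_a_at read 1.8 in the Fbxl10-labelled library and 3.5 in the empty vector library.

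The corepressor genes differed from each other. Nrip1 was lower by both of its probe sets, at 314.1 in the Fbxl10-labelled library and 509.5 in the empty vector library for 1449089_at (log2 difference -0.70) and at 85.2 in the Fbxl10-labelled library and 129.1 in the empty vector library for 1454295_at (-0.60). Both are within 2-fold, and 10.2% of detected genes were as low as the brighter one or lower.

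Ncor1 was near 0 at its brightest probe set 1423202_a_at, with 681.7 in the Fbxl10-labelled library and 654.6 in the empty vector library (log2 difference 0.06). At 1423200_at it read 479.1 in the Fbxl10-labelled library and 474.2 in the empty vector library (0.01), and at 1423201_at 337.9 in the Fbxl10-labelled library and 445.3 in the empty vector library (-0.40). The dimmer 1435914_at, filed under a clone name, read 65.0 in the Fbxl10-labelled library and 41.5 in the empty vector library (0.65). Its probe sets thus disagree in direction by more than the usual spread, and the bright ones do not reach 2-fold. Probe set 1444760_at read 27.6 in the Fbxl10-labelled library and 10.9 in the empty vector library, at least 1.42-fold higher, while the authors' deposited table gives it a log2 ratio of 0.1.

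By the brightest detected probe set of each gene, 3 of the 9 members (Pparg, Ppargc1a and Ppargc1b) were lower in the Fbxl10-labelled library by 2-fold or more, and 0 were higher by as much. Among all detected genes 5.33% were lower and 9.75% higher by that rule. The median log2 difference was -0.80 over the 9 genes and 0.06 over all detected genes. At the brightest probe set 7 of the 9 genes were below 0 and 2 above. Among all 11326 detected genes 5203 were below 0 and 6117 above. Of the 19 member probe sets above the threshold on both arrays, 14 were below 0 and 5 above. Several of those belong to the same gene and are not separate members. The median log2 difference of the 19 was -0.18. Over the 10112 genes detected on both arrays, each at its brightest probe set, it was 0.03.

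The balance of all genes depends on the scaling. With differences centred on the hybridization spike-ins, 8.43% were lower by 2-fold or more and 6.68% higher, and with the trend on brightness removed 6.97% lower and 6.22% higher. The median over detected probe sets stood 0.11 above 0 and the spike-in mean 0.22 above 0 on the log2 scale. The direction of Ncor1 and Med1 is not settled at that size: both are below 0 with centring on the median (-0.05 and -0.09) or on the spike-ins (-0.16 and -0.20).

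In order of log2 difference from the lowest, the genes ran Ppargc1b, Pparg, Ppargc1a, Rxra, Ncoa1, Nrip1, Ncoa2, Med1, Ncor1. A gap of 1.15 separated Ppargc1b from Pparg, and its size rests on the dim Ppargc1b signal of 29.9 in the Fbxl10-labelled library. Ppargc1a has only bounds. The bound at its brightest probe set (1437751_at, at least 2.57-fold) puts it below Rxra (1.96-fold), while that at 1460336_at (at least 1.61-fold) does not. Its distance from Rxra and its place beside Pparg have no fixed size. A gap of 0.53 separated Nrip1 from Ncoa2. Rxra, Ncoa1 and Nrip1 lay within 0.17 and 0.10 of each other in turn, less than the probe set SD of 0.281, and so did Ncoa2, Med1 and Ncor1 with gaps of 0.19 and 0.04. The order inside each of these trios cannot be read. The SD of 0.281 describes single differences at signals of 100 to 500, and a gap between genes spreads more widely. The 0.53 between Nrip1 and Ncoa2 is therefore not a firm division. Ncor1 is brighter, where the SD was 0.198.

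**Figure D2:**
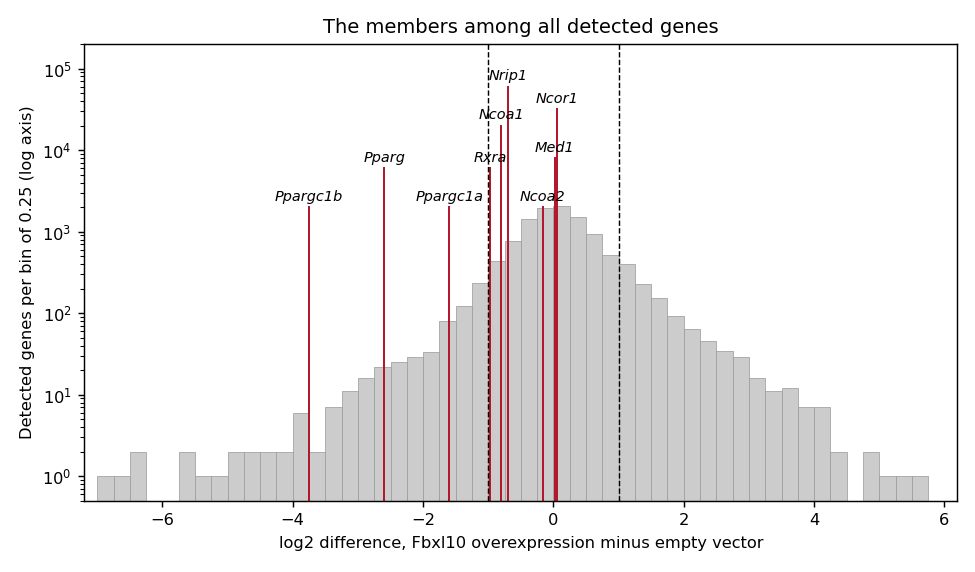
Log2 difference (Fbxl10-labelled library over empty vector library) of all 11326 detected genes, counted in bins of 0.25 on a log axis, with the 9 genes marked by lines whose height has no meaning. Dashed lines are 2-fold. Ppargc1b, Pparg and Ppargc1a lie in the lower tail, Rxra at the 2-fold line, and Ncor1, Med1 and Ncoa2 at the centre.

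Other parts of the coregulator machinery were examined as lists of genes outside the 9, and each detected gene was within 2-fold at its brightest probe set by the signals as deposited. Of 19 detected coactivators 0 were past 2-fold in either direction, beside 5.33% lower and 9.75% higher of all detected genes. Their median log2 difference was -0.02. Lowest were the acetyltransferase gene Kat2b, encoding PCAF (406.9 in the Fbxl10-labelled library and 723.8 in the empty vector library, -0.83), Smarcd3, a chromatin remodelling subunit (-0.60), and Ncoa4, also a ferritin receptor (-0.55). Highest were Wwtr1, encoding TAZ (833.1 in the Fbxl10-labelled library and 625.9 in the empty vector library, 0.41), Kmt2c (0.37) and Ncoa5 (0.31). Kat2b reached 2-fold with spike-in centring. Prdm16, the brown fat coregulator, was undetected, at 5.8 or less at both of its probe sets.

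Of 16 corepressors, all detected, 0 passed 2-fold at the brightest probe set, beside the same 5.33% and 9.75% of all detected genes. The median was 0.07. Dimmer probe sets of Sin3b, a scaffold of a histone deacetylase complex, and of the deacetylase gene Hdac1 were past it. They read 48.6 in the Fbxl10-labelled library and 19.7 in the empty vector library for Sin3b (1425630_at, 2.47-fold higher), and 42.7 in the Fbxl10-labelled library and 21.2 in the empty vector library for Hdac1 (1446474_at, 2.01-fold higher). Hdac3, the deacetylase of the NCoR complex, read 428.4 in the Fbxl10-labelled library and 458.8 in the empty vector library (-0.10). Tbl1xr1, another subunit of it, was lowest (-0.37), followed by Hdac2 (-0.28) and Ctbp1 (-0.21). Sin3b (0.66), Gps2 (0.63) and Lcor (0.61) were highest.

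Of 28 detected Mediator genes outside Med1, 0 passed 2-fold at the brightest probe set and the median was -0.10. Cdk8 and Cdk19, paralogous kinases of the Mediator kinase module, lay on opposite sides. Cdk8 read 376.5 in the Fbxl10-labelled library and 603.9 in the empty vector library (-0.68), and Cdk19 read 198.6 in the Fbxl10-labelled library and 112.3 in the empty vector library (0.82), the highest of the list. Med26 (-0.74) and Med8 (-0.65) were the other low ends, and Med13l (0.71) and Med18 (0.47) the other high ends. A dimmer Med13l probe set (1453906_at) was past 2-fold, at 96.3 in the Fbxl10-labelled library and 39.1 in the empty vector library (2.46-fold higher). Together, 0 of 63 detected genes in these lists were past 2-fold at the brightest probe set by the signals as deposited, beside 3 of the 9 members. Of all detected genes 5.33% were lower and 9.75% higher by that rule. In these lists 3 genes had another detected probe set past 2-fold, in each case higher. The differences between those shares were not tested.

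Adipocyte genes known to be bound and activated by PPAR gamma were lower. Among 25 detected, 17 were lower in the Fbxl10-labelled library by 2-fold or more, 0 were higher by as much, and all 25 lay below 0 at the brightest probe set, beside 5.33% lower and 9.75% higher of all detected genes. A dim probe set of Gk, the glycerol kinase gene (1445242_at), went the other way, at 24.1 in the Fbxl10-labelled library and 8.6 in the empty vector library, at least 1.24-fold higher, while its brightest read -0.81. The list's median log2 difference was -2.58, or -2.53 with dim signals raised to the threshold, since 7 of the 25 were detected in the empty vector library alone and passed the detection rule only there. Fabp4, the fatty acid binding protein of adipocytes, read 185.3 in the Fbxl10-labelled library and 7433 in the empty vector library (log2 difference -5.33). Cfd, adipsin, was at least 22.0-fold lower, Cidec, a lipid droplet protein, at least 28.2-fold and Gpat3, an acyltransferase of triglyceride synthesis, at least 70.7-fold.

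The list was not uniform. Angptl4, a secreted inhibitor of lipoprotein lipase, read 1290 in the Fbxl10-labelled library and 1315 in the empty vector library (-0.03). Slc27a1, a fatty acid transporter, read 54.4 in the Fbxl10-labelled library and 60.9 in the empty vector library (-0.16). Plin5, Cidea, Pck1 and Aqp7 were undetected in both libraries. The membership of this list overlaps what was already known to be low in these libraries, so its count is not independent support for any member.

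Genes activated through the PGC-1 coactivators were mostly within 2-fold. Among 21 detected, 2 were lower by 2-fold or more and 1 higher, beside 5.33% lower and 9.75% higher of all detected genes. Of the 21, 17 lay below 0, and their median was -0.28. With spike-in centring 5 were lower and 0 higher, beside 8.43% lower and 6.68% higher of all detected genes. Idh3a, of the citric acid cycle, read 499.6 in the Fbxl10-labelled library and 2506 in the empty vector library (-2.33), though its detected probe sets ran up to -0.24. Cytochrome c (Cycs) read 1897 in the Fbxl10-labelled library and 4729 in the empty vector library (-1.32), and Mfn2, of mitochondrial fusion, 142.8 in the Fbxl10-labelled library and 274.6 in the empty vector library (-0.94). Cpt1a, of mitochondrial fatty acid import, was highest (760.2 in the Fbxl10-labelled library and 327.4 in the empty vector library, 1.22), with probe sets from 0.26, followed by Pdk4 (304.2 in the Fbxl10-labelled library and 159.9 in the empty vector library, 0.93) and Vegfa (0.14). Tfam, the mitochondrial genome factor, stood at -0.37 and Nrf1 at -0.06. Ucp1, Cox7a1, Cpt1b, Ucp3 and Esrrg were undetected.

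Regulators upstream of Pparg were found on both sides of 0. The list mixes activators and repressors of adipogenesis, so its median says nothing on the net input to Pparg. Among 24 detected, 3 were lower by 2-fold or more in the Fbxl10-labelled library and 2 higher, with a median of -0.01, beside 5.33% lower and 9.75% higher of all detected genes. Putting dim signals at the threshold leaves 1 higher. Cebpa had no probe set assigned to it by name, and Klf15 and Gata3 were undetected. Srebf1 read 234.4 in the Fbxl10-labelled library and 651.9 in the empty vector library (-1.48), Stat5a 212.8 in the Fbxl10-labelled library and 569.4 in the empty vector library (-1.42), and Cebpg 367.4 in the Fbxl10-labelled library and 786.8 in the empty vector library (-1.10). Cebpb, which acts early on the Pparg gene, read 952.8 in the Fbxl10-labelled library and 1179 in the empty vector library (-0.31), and Cebpd, its early partner, 830.3 in the Fbxl10-labelled library and 453.9 in the empty vector library (0.87). Ebf2 (66.9 in the Fbxl10-labelled library and 31.6 in the empty vector library, 1.08) and Zfp467 (37.4 in the Fbxl10-labelled library and 18.4 in the empty vector library, at least 1.93-fold) were the pair past 2-fold as deposited. With centring on the median or spike-ins, quantile normalization or the brightness trend removed, 0 were at the brightest probe set. The 3 detected probe sets of Ebf2 ran from 1.08, at the brightest, to 1.46, and the 3 of Zfp467 from 0.66 to 1.02. Ebf1, a factor that promotes adipogenesis, was within 2-fold at its brightest probe set (0.75), while 4 of its other detected probe sets were 2-fold higher or more (up to 1.59).

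**Figure D3:**
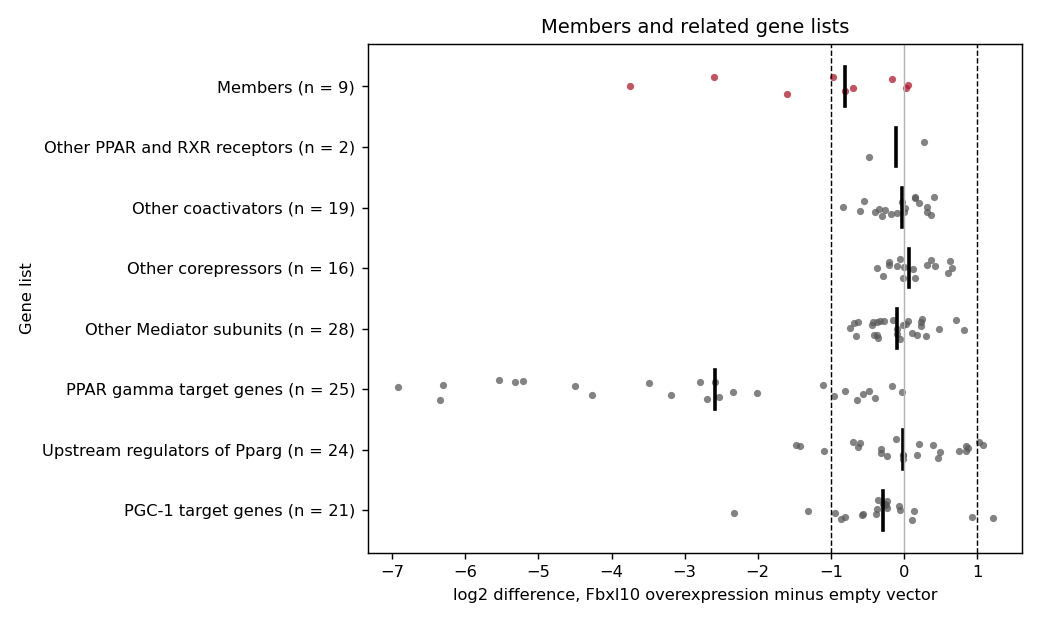
Log2 difference (Fbxl10-labelled library over empty vector library) of the 9 genes and of each list, 1 point per detected gene at its brightest probe set and signals as deposited, with vertical ticks at the median and dashed lines at 2-fold. Coactivators, corepressors and Mediator genes outside the members stay within the dashed lines, while 17 of 25 PPAR gamma target genes lie below them.

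Other ways of processing moved the members little, as the plot of their differences by setting shows. Over 11 alternatives Pparg stayed between -2.82 and -2.50 and Ppargc1b between -3.97 and -3.50. Each has 1 detected probe set, above the threshold on both arrays, though for Ppargc1b the signal in the Fbxl10-labelled library (29.9) was near it. Alternatives that change only detection, dim signals or the choice of probe set, or reread the same deposited values, therefore could not move them. Ppargc1a ran from -1.85 to -1.30, and had no value where detection on both arrays (4.34% of all genes lower by 2-fold or more, 6.38% higher) or a signal of at least 100 (5.28% lower, 6.62% higher) was required. Those alternatives left 8 members, 2 of them lower by 2-fold or more. Rxra ran from -1.19 to -0.97 and was past 2-fold with centring on the median (-1.08) or the spike-ins (-1.19), just past it with quantile normalization, and at the mark itself by the authors' deposited table, which gives -1.0 to 1 decimal. Ncoa1 crossed it with spike-in centring (-1.02) and, likewise at the mark, in the authors' deposited table (-1.0). Nrip1 ran from -0.92 to -0.64 and Ncoa2 from -0.39 to -0.11, within 2-fold under each alternative run. Over all detected genes the share lower by 2-fold or more was 6.52% with median centring (8.03% higher), 6.42% with quantile normalization (7.73% higher) and 5.02% by the authors' deposited table (8.74% higher). With dim signals raised to the threshold, where Pparg, Ppargc1a and Ppargc1b were past 2-fold as before, it was 4.26% (6.75% higher).

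**Figure D4:**
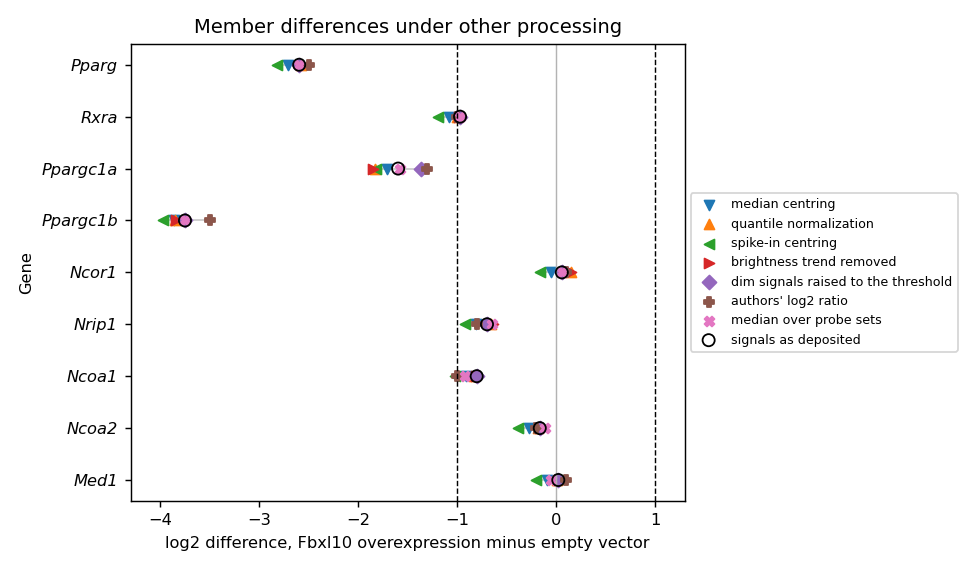
Log2 difference (Fbxl10-labelled library over empty vector library) of each of the 9 genes with the signals as deposited (open circles) and under 7 of the alternatives. Dashed lines are 2-fold. Pparg, Ppargc1a and Ppargc1b stay below the line, and Rxra and Ncoa1 sit on it or beside it.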

How the data were processed

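Total RNA of both samples was biotin-labelled for Affymetrix arrays, per the labels' protocols. The deposited table holds 1 linear signal intensity per probe set and array, which the authors had scaled: the mean after trimming 2% at each end was 100 on both. It also holds the authors' deposited log2 ratio, to 1 decimal. How probes were summarised is not given in the sources used here. Detection calls were not used.

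Log2 differences were taken from the intensities as deposited. A probe set was detected where the higher signal reached 19.4, and each gene was read at its brightest detected probe set. A signal below that value gives a fold as a bound. A gene was called different at 2-fold, a rule of size. Symbols were updated through RefSeq (31550 of 33957 probe sets with 1 symbol matched), and promoter sequences are RefSeq's, GRCm38.p6. The genes named were all members, Kdm2b and up to 3 genes at each end of every list, a few such genes are not reported here, and those named beyond that were picked for their known role after values were seen. Members and lists were chosen with earlier results of these data known. The steps were tested on simulated data (Python 3.11.15, pandas 2.3.3, statsmodels 0.14.6).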

Additional observations from a re-analysis of the deposited data

How the results depend on the processing

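The number of the 9 genes at least 2-fold lower was 3 with the signals as deposited (5.33% of all detected genes lower, 9.75% higher). It was 5 with spike-in centring (8.43% lower, 6.68% higher) and 5 by the authors' deposited log2 ratio (5.02% lower, 8.74% higher). The genes added in both were Rxra and Ncoa1, which lay near the mark already. The number was 4 with median centring (6.52% lower, 8.03% higher) or quantile normalization (6.42% lower, 7.73% higher). It was 2 of 8 with detection on both arrays (4.34% of all genes lower, 6.38% higher). With a signal of at least 100 (5.28% lower, 6.62% higher) it was also 2 of 8. Both of these rules leave Ppargc1a out. No alternative put a member at least 2-fold higher. The 7 lists held 25 genes past 2-fold as deposited, beside 5.33% lower and 9.75% higher of all detected genes. Over the alternatives the fewest were 19, with detection on both arrays (4.34% of all genes lower, 6.38% higher). The most were 32, with no detection filter (10.4% of all genes lower, 17.2% higher). The differences between these counts and shares were not tested. The value table of the series gave the same numbers, with 0 probe sets differing. No paired analysis was possible because each group has 1 sample, and no replicate could be left out. Dim probe sets are limited by background, and precision is limited by having 1 array in each group.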

Other observations

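The authors' deposited log2 ratio was set beside the ratio of the deposited signals for the 27 member probe sets. At the 19 above the threshold on both arrays the sizes of the differences had a median of 0.08 and reached 0.29 on the log2 scale. At the other 8 the median was 0.23 and the highest 1.24, at Ncor1 probe set 1444760_at. The deposited ratio was therefore not computed from these 2 signals alone, and how it was made is not given in the sources used here.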
